A study of Caenorhabditis elegans with 6 samples.

Results

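The genes described here are 9 components of insulin-like signalling and ageing in Caenorhabditis elegans, out of 19973 protein-coding genes annotated on its nuclear chromosomes: daf-2, age-1, pdk-1, akt-1, akt-2, sgk-1, daf-18, daf-16 and sod-3. They were taken from a list of names, and all 9 were found in the WBcel235 annotation. For each gene, the peak summits of ELT-3 chromatin immunoprecipitation sequencing (ChIP-seq) were collected in a window running from 5000 bp upstream of the most upstream annotated 5′ end to the 3′ end. ELT-3, a GATA factor, is known from the epidermis.

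The 6 libraries formed 1 group: whole L3 larvae of mixed sex and unknown age, strain OP75 with the genotype unc-119(ed3) III; wgIs75, which stably expresses ELT-3 with GFP and FLAG fused to its C-terminus. They came from 4 biological replicates, numbered 1, 2, 4 and 5, and replicate 2 was sequenced as 3 technical libraries that were counted once. The study has no second condition, so every value below describes where summits lay, and no test between conditions was possible. The tagged protein came from an inserted transgene, and peaks from whole animals do not say in which cells ELT-3 was bound.

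In this pathway, insulin-like peptides bind the receptor DAF-2, which activates the phosphoinositide kinase AGE-1. The kinases PDK-1, AKT-1, AKT-2 and SGK-1 act downstream of the lipid it makes, and the phosphatase DAF-18 removes that lipid. Signalling keeps the FOXO transcription factor DAF-16 out of the nucleus. When signalling is low, DAF-16 enters the nucleus and switches on protective genes, of which the manganese superoxide dismutase gene sod-3 is a standard readout. Low signalling through DAF-2 or AGE-1 extends life and favours the dauer larva, and the epidermis is one of the tissues in which DAF-16 is active. A role of ELT-3 in ageing has been proposed and debated.

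The authors deposited a stringent list of 1047 peaks, called optimal here. They also deposited a list of 14525 entries called on the pooled reads, and a list of 30000 for each replicate. By their labels, the pooled and replicate lists hold background regions as well as peaks. A summit of those lists, called a peak below, need not be a binding site. The deposited signal value, the authors' own measure of how strong a peak is, set its rank in its list, with rank 1 the strongest. The optimal peaks were the 1047 highest by signal in the pooled list. Ranks in replicate 5 leave out its 14 mitochondrial peaks. Read depth is unknown here, and the precision of a rank is shown by its spread over the 4 replicates.

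An optimal summit lay in the window of 1 of the 9 genes, pdk-1. By the same window, 7.62% of all protein-coding genes held an optimal summit, so 1 of 9 (11.1%) was near the background. Among the 2094 strongest pooled peaks, a summit lay in the windows of 4 of the 9 genes, pdk-1, akt-2, sgk-1 and daf-16, against 13.9% of all protein-coding genes, and with 10000 bp upstream an optimal summit lay in those of 2 of the 9, against 11.7%. A pooled summit lay in the windows of 6 of the 9 genes (66.7%), against 62.2% of all protein-coding genes, which was again near the background. The 6 were daf-2, pdk-1, akt-2, sgk-1, daf-18 and daf-16. The windows of age-1, akt-1 and sod-3 held none. The 9 windows together held 28 pooled summits, of which 14 were at daf-16. The median window was 11.6 kb for the 9 genes and 7.03 kb for all protein-coding genes. Longer windows can hold more summits, and these shares are not matched for window length. The median density was 0.172 pooled summits per kb of window for the 9 genes and 0.131 for all protein-coding genes.

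**Figure D1:**
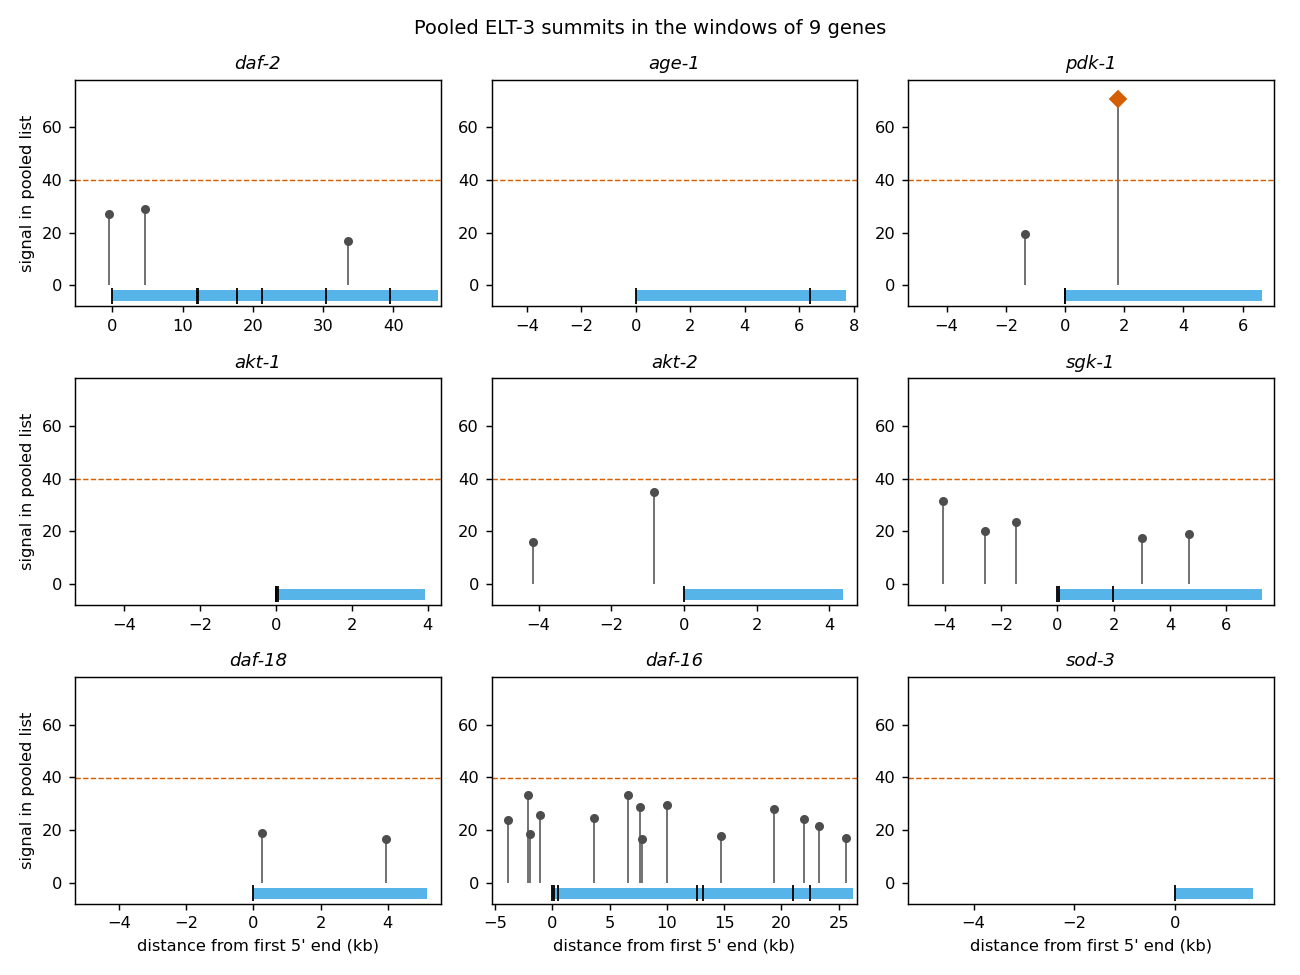
Pooled ELT-3 summits in the windows of the 9 genes. Each stem is 1 summit, its height the authors' signal value in the pooled list, against the distance from the most upstream 5′ end in kb. Blue bars are the genes with black ticks at annotated 5′ ends, the orange diamond is an optimal peak, and the dashed line is the lowest optimal signal, 39.9. Only the pdk-1 peak at 1797 bp stands above the line, and daf-16 has 14 stems below it.

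The sequences around the summits that the results turn on are given first. Each is 101 bases centred on a pooled summit, read from the RefSeq copy of WBcel235 (ce11) along the strand of the gene, with GATA sites in capitals. A GATA site was GATA preceded by A or T and followed by A or G, on either strand, so CTATCA in capitals is such a site read on the other strand. The pdk-1 intron sequence (chrX:1323091-1323191) is the only one from an optimal peak, the pdk-1 upstream sequence (chrX:1319933-1320033) holds the strongest pdk-1 peak of replicate 2, the akt-2 sequence (chrX:14146835-14146935) is the strongest summit of that gene, and the daf-2 sequences (chrIII:3041272-3041372 upstream and chrIII:3036208-3036308 in an intron) show its summits with and without a GATA site.
pdk-1 intron: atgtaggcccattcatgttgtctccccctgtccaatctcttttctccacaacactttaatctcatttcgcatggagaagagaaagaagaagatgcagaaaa
pdk-1 upstream: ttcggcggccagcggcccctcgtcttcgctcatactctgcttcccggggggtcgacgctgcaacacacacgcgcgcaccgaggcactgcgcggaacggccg
akt-2 upstream: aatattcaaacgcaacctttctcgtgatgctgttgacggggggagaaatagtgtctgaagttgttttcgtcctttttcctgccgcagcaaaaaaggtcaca
daf-2 upstream: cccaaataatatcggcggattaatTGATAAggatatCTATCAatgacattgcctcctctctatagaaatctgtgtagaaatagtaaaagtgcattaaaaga
daf-2 intron: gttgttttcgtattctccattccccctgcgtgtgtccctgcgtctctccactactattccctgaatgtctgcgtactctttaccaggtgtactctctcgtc

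A minority of these summits held a GATA site. Of the 28 pooled summits in the 9 windows, 5 (17.9%) had a GATA site within 50 bp, against 25.5% of all 14525 pooled summits. In a flank window of the same size 350 bp to the left, 5 of the 28 and 20.6% of all pooled summits held one. The 5 summits with a site were 3 at daf-16, 1 at daf-2 and 1 at akt-2. The optimal peak of pdk-1 had none within 50 bp, where 39.4% of all optimal peaks had one, and its nearest site lay 132 bp from the summit.

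The receptor gene daf-2 (III, 2994514 to 3040846, minus strand) is the longest of the 9, with a window of 51.3 kb, and held 3 pooled summits and no optimal one. The strongest lay 4588 bp inside the gene, in an intron and within the long noncoding RNA gene linc-143, with a pooled signal of 29.0 at rank 2347. At this site replicates 1, 4 and 5 had peaks within 100 bp at ranks 4041, 2053 and 3543, and replicate 2 had none. The next, with a pooled signal of 27.1 at rank 2827, lay 476 bp upstream of the most upstream 5′ end. It was found in replicate 4, at rank 1506, and no other replicate had a peak within 100 bp of it. Its sequence above carries 2 GATA sites, about 24 and 12 bp before the summit. The third summit, at rank 12524 in an intron, was matched in replicates 1 and 4.

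The strongest peak anywhere in the daf-2 window ranked 4041, 2277, 1506 and 3190 in replicates 1, 2, 4 and 5. These 4 peaks were at different places, 4664 bp and 20942 bp inside the gene in replicates 1 and 2, and 476 bp and 1134 bp upstream of it in replicates 4 and 5. None was among the 1047 strongest of its replicate. The pooled density at daf-2 was 0.0584 summits per kb, 0.403 times that of the whole genome. The median was 0.110 per kb for the 93 genes with windows at least as long as that of daf-16. In the replicate lists the density at daf-2 was nearer that of the genome, at a mean of 0.912 times.

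The catalytic subunit of phosphoinositide 3-kinase is encoded by age-1 (II, 11519328 to 11527054, minus strand). Its window held no pooled summit, and the nearest one lay 7953 bp upstream, beyond the window, at rank 4773 and nearest to the 5′ end of Y62F5A.12. The strongest peaks of the 4 replicates in the window ranked 5803, 9989, 4212 and 24869 in replicates 1, 2, 4 and 5, and none was among the 1047 strongest. In the 300 bp upstream of the 9 genes there were 3 GATA sites at sgk-1 and at daf-16, 2 at age-1, 1 at akt-2, daf-18 and sod-3, and 0 at daf-2, pdk-1 and akt-1. At least 1 such site was thus present at 6 of the 9 genes, and at 54.9% of all protein-coding genes.

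The kinase PDK-1 phosphorylates AKT-1, AKT-2 and SGK-1, and its gene pdk-1 (X, 1321344 to 1327986, plus strand) carried the only optimal peak of the 9. The peak (X, 1322973 to 1323308) had its summit 1797 bp downstream of the most upstream 5′ end, in an intron of both annotated transcripts. Its pooled signal was 70.7, at rank 193 of 14525, or 1.77 times the lowest optimal signal. No other gene overlapped the summit, and pdk-1 had the nearest 5′ end.

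In the replicates, the intronic pdk-1 peak had signals of 14.8, 4.45, 20.4 and 23.3 in replicates 1, 2, 4 and 5. The matching ranks were 437, 20625, 707 and 130, so replicates 1, 4 and 5 placed it among their 1047 strongest peaks and replicate 2 did not. The replicate summits lay 69, 47, 1 and 84 bp from the pooled one. At a matching distance of 50 bp in place of 100 bp, replicates 1 and 5 were no longer matched, and only replicate 4 then had it among its strongest peaks. Among all optimal peaks, 60.8% were matched by the strongest peaks of at least 2 replicates and 25.2% by those of 3 or 4.

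Replicate 2 had its strongest pdk-1 peak elsewhere, 1360 bp upstream of the gene, at rank 237 with a signal of 14.8. Replicate 5 also had a peak there, at rank 2781, and replicates 1 and 4 had none within 100 bp. In the pooled list this upstream site had a signal of 19.5 at rank 7831. The sequences of the pdk-1 sites differed in composition, with 71.3% G or C at the upstream summit and 41.6% at the intronic one. Counting either site, a peak in the pdk-1 window was among the 1047 strongest in all 4 replicates, at ranks 437, 237, 707 and 130. By the same count, 1.55% of all protein-coding genes had such a peak in all 4, and the other 8 listed genes did not. The optimal pdk-1 peak was itself drawn from peaks called on the reads of these replicates. Strong replicate peaks at pdk-1 are therefore not independent of it.

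**Figure D2:**
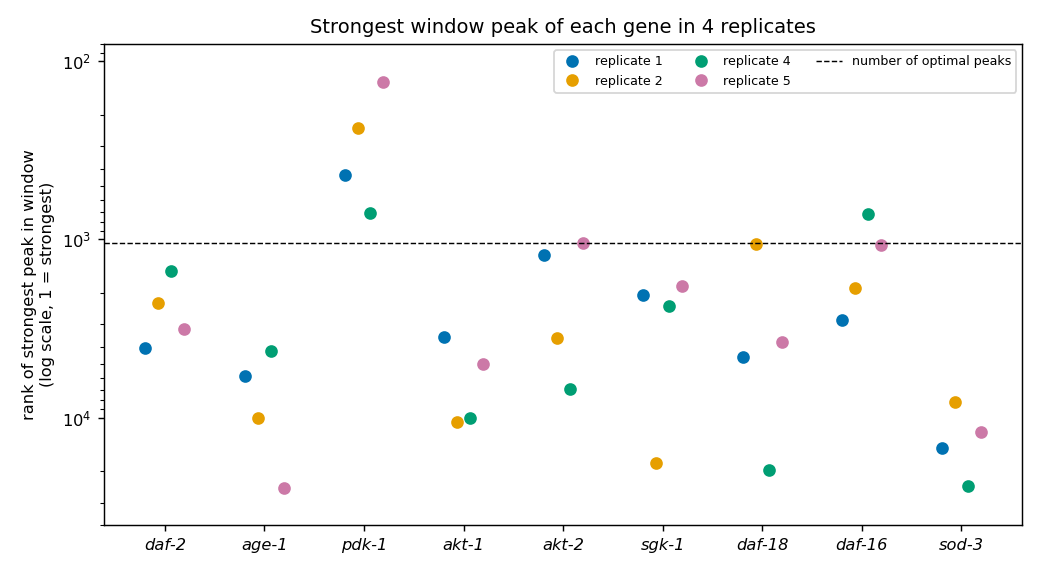
Rank of the strongest peak in each gene window in replicates 1, 2, 4 and 5, on a logarithmic axis with strong peaks at the top. The dashed line marks 1047, the number of optimal peaks. The pdk-1 points lie above it in all 4 replicates, at ranks 130 to 707, and the sod-3 points lie at 8187 to 24158. The replicate 2 point of pdk-1 is a peak upstream of the gene, and the others are at the intronic site.

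The strongest pdk-1 window peaks were most like those of R03G8.6 and F17H10.1, 2 genes on X that share 1 peak. Their strongest window peaks ranked 268, 258, 906 and 144 in replicates 1, 2, 4 and 5. Likeness was the mean absolute difference of log10 rank over the 4 replicates, which was 0.100 for this pair and 0.151 for the next gene, C14A4.6, among 13181 protein-coding genes with a peak in every replicate list. C14A4.7, C14A4.8 and C14A4.9 tied with C14A4.6 through a shared peak. On such short series of ranks, likeness says only that the peaks were similarly strong.

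AKT-1 and AKT-2 are the protein kinase B homologues that phosphorylate DAF-16, and their genes differed in their summits. At akt-1 (V, 10248905 to 10252845, plus strand) there was no pooled summit, and the nearest lay 11954 bp upstream at rank 8329. The strongest akt-1 window peaks ranked 3549, 10550, 10047 and 4997 in replicates 1, 2, 4 and 5. At akt-2 (X, 14147700 to 14152070, plus strand), a pooled summit lay 815 bp upstream with a signal of 35.1 at rank 1454, below the lowest optimal signal of 39.9. Replicates 1 and 5 had a peak within 100 bp of it, at ranks 1230 and 1046, and replicates 2 and 4 did not.

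The strongest akt-2 window peaks ranked 1230, 3559, 6882 and 1046 in replicates 1, 2, 4 and 5, and lay 878, 689, 634 and 800 bp upstream. All 4 thus lay 634 to 878 bp upstream of the gene, but those of replicates 2 and 4 were not within 100 bp of the pooled summit. The rank ranges of the 2 akt genes overlapped, at 1046 to 6882 for akt-2 and 3549 to 10550 for akt-1. The replicate 5 peak was just inside the 1047 strongest, and with mitochondrial peaks counted it ranked 1058 and fell outside. The second akt-2 summit, 4158 bp upstream at rank 14018, had 1 GATA site but lay in the gene ceh-89 and was matched in none of the replicates.

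SGK-1 is a related kinase that also acts in stress resistance and growth. Its gene sgk-1 (X, 16254842 to 16262122, minus strand) held 5 pooled summits, a density of 0.407 per kb, which was 2.46 times that of the X chromosome and exceeded by 7.94% of protein-coding genes. The strongest, with a signal of 31.3 at rank 1952, lay 4062 bp upstream, but only 498 bp upstream of the 5′ end of mua-6, a neighbouring intermediate filament gene. The summits 1458 and 2559 bp upstream lay within mua-6 itself, at ranks 4429 and 7249. Inside sgk-1 there were an intronic summit at rank 8775 and one in a coding exon at rank 11024. Of the 5 summits, 2 had their nearest 5′ end at mua-6 and none had a GATA site within 50 bp.

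The strongest sgk-1 window peaks ranked 2060, 17923, 2360 and 1814 in replicates 1, 2, 4 and 5, so replicate 2 was far weaker than the others. The number of replicate summits in the window also differed, with 3, 2, 8 and 7. No sgk-1 summit of the pooled list was matched in more than 2 replicates. The next optimal summit upstream lay 9270 bp from the most upstream 5′ end of sgk-1, outside the window, at rank 828 and nearest to ifa-3.

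The lipid phosphatase gene daf-18 (IV, 420011 to 425177, minus strand) held 2 weak pooled summits in introns. The stronger lay 249 bp downstream of the 5′ end with a signal of 19.1 at rank 8400. It was matched in replicate 1 at rank 8558 and in replicate 2 at rank 1058. The strongest window peaks ranked 4587, 1058, 19757 and 3755 in replicates 1, 2, 4 and 5, a wide spread with replicate 4 lowest. A further pooled summit lay just outside the window, 5280 bp upstream, so the upstream limit of 5000 bp left it out. The farthest upstream summits inside any of the 9 windows were those 4158 bp from akt-2 and 4062 bp from sgk-1.

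The FOXO gene daf-16 (I, 10750498 to 10776703, plus strand) had 14 pooled summits in its window of 31.2 kb and no optimal one. Their deposited −log10 q-values ran from 1.41 and 1.36, then 0.97, down to 0.04, against 2.82 at the optimal pdk-1 peak. Low values mark weak evidence for a peak. The values ran from 1.52 to 0.03 at akt-2, 1.14 to 0.06 at sgk-1, 0.9 to 0.04 at daf-2 and 0.11 to 0.03 at daf-18. The peaks 2123 and 1922 bp upstream overlapped, as did those 7641 and 7850 bp inside the gene, so the 14 summits are not 14 separate sites. The summit density was 0.449 per kb, 3.10 times that of the genome. There were 93 protein-coding genes with a window at least as long, and among these none of the others reached this density. Their median, daf-16 included, was 0.110 per kb, and the highest of the others was 0.311. Over all protein-coding genes, 6.25% had a higher density, all of them with shorter windows. Among the 404 genes with windows of at least 20 kb, a limit chosen after the values were seen, 8 others reached the density of daf-16. One was the ageing gene hlh-30, which also held 14 pooled summits, in 25.2 kb (0.556 per kb). The gene was singled out among the 9 after its values were seen, so this is a description with no test.

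**Figure D3:**
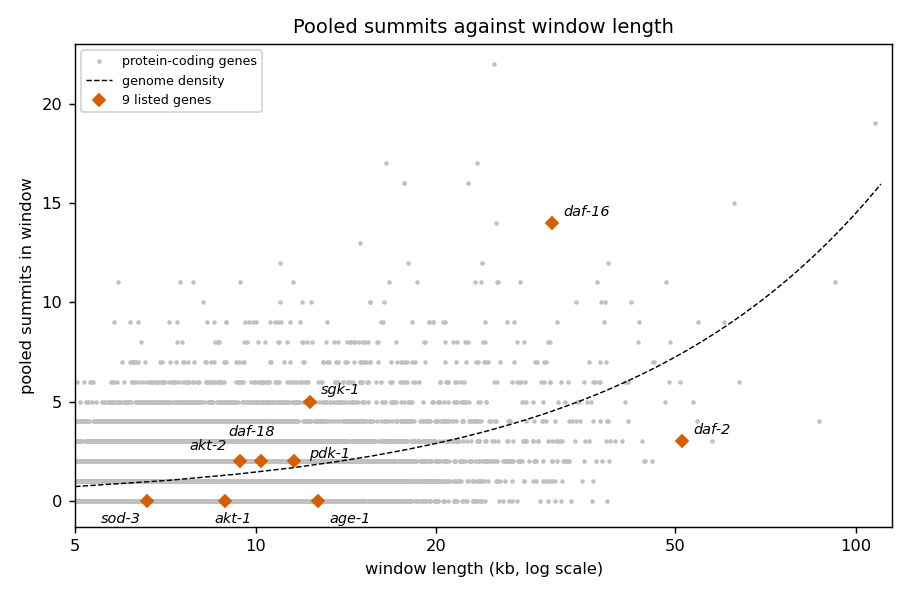
Number of pooled summits in the window of each protein-coding gene against the window length in kb, on a logarithmic length axis, with the 9 genes in orange. The dashed line is the number expected from the genome density of 0.145 per kb. The daf-16 point, at 14 summits in 31.2 kb, lies above the line, and daf-2, at 3 in 51.3 kb, lies below it.

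The density at daf-16 was also high in each replicate list. The window held 17, 18, 21 and 22 summits in replicates 1, 2, 4 and 5, or 1.82, 1.93, 2.25 and 2.36 times the density of the same list over the genome (mean 2.09 ± 0.255, SD, n = 4). At daf-2, whose window is longer, there were 14, 17, 11 and 14 summits, or 0.912, 1.11, 0.716 and 0.912 times the genome density (mean 0.912 ± 0.159, SD, n = 4). The values of the 2 genes did not overlap. Among the 93 genes with long windows the median of the mean relative density was 0.941, and the highest after daf-16 was 1.63. Like the pooled list, these lists hold background regions as well as peaks.

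**Figure D4:**
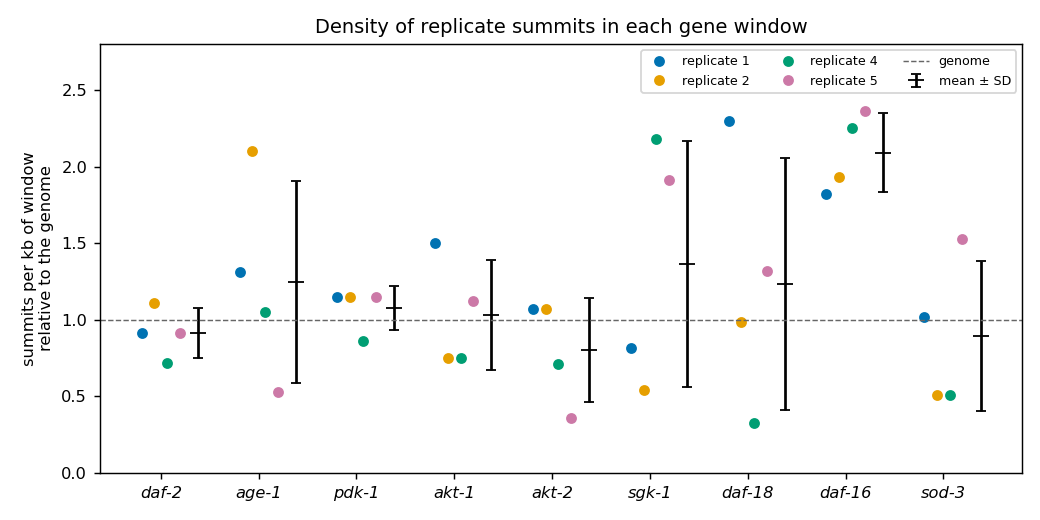
Summits per kb of window relative to the genome, for each of the 9 genes in replicates 1, 2, 4 and 5, with the mean and SD beside the points. The dashed line at 1 is the genome density of the same list. All 4 daf-16 points lie between 1.82 and 2.36, and those of daf-2 between 0.716 and 1.11. Some points of age-1, sgk-1 and daf-18 lie within the daf-16 range.

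The daf-16 summits were spread along the gene. The gene has 7 annotated 5′ ends, which start transcripts with different N-termini, and they lie at the start of the gene, around 12605 bp to 13156 bp and around 21010 bp to 22501 bp. Of the 14 summits, 4 lay upstream, 8 in introns, 1 in a coding exon and 1 in an untranslated exon. In the long stretch between the 5′ ends at 462 and 12605 bp there were 5 intronic summits. The one at 6647 bp, with a signal of 33.2 at rank 1676, was matched in replicates 2, 4 and 5 at ranks 1978, 1040 and 5307. The noncoding RNA gene R13H8.4 overlaps it. The one at 7641 bp, at pooled rank 2403, held 2 TGATAA sites and was matched in replicates 4 and 5 at ranks 723 and 1783.

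The strongest pooled summit of daf-16 lay 2123 bp upstream, with a signal of 33.4 at rank 1654, and was matched in replicates 1 and 2 at ranks 3929 and 21365. Replicate 4 had a peak at rank 1007 matched to the adjacent pooled summit, 1922 bp upstream and at pooled rank 9213. The summit at 19385 bp lay 1625 bp upstream of the 5′ end at 21010 bp and was matched in replicates 2 and 5 at ranks 1873 and 1080. The strongest window peaks ranked 2847, 1873, 723 and 1080 in replicates 1, 2, 4 and 5, of which only that of replicate 4 was among the 1047 strongest. At daf-16, 10 of the 14 pooled summits were matched in at least 2 replicates, but only 2 in 3.

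Over the 28 pooled summits of the 9 genes, 18 (64.3%) were matched in at least 2 replicates and 4 (14.3%) in 3 or 4, against 61.5% and 21.8% of all pooled summits. Only the intronic pdk-1 summit was matched in all 4. Pooled peaks were called on the reads of these replicates, which makes the matches dependent on them.

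The superoxide dismutase gene sod-3 (X, 17092753 to 17094306, plus strand) had no optimal or pooled summit in its window. The nearest pooled summit lay 5584 bp downstream of its 5′ end, past the gene, at rank 6246 and nearest to lido-1, and the nearest optimal summit was 45620 bp away. The strongest window peaks ranked 14735, 8187, 24158 and 12057 in replicates 1, 2, 4 and 5. None was among the 1047 strongest, and their range overlapped those of age-1, akt-1, sgk-1 and daf-18. The 300 bases upstream of sod-3 (chrX:17092453-17092752, plus strand) are shown because this promoter is the usual reporter of DAF-16 activity. Capitals mark 1 match to GTAAACA, the core of the DAF-16 binding element, read on the other strand as TGTTTAC, 114 bp upstream of the 5′ end, and 1 GATA site 84 bp upstream, read on the other strand as CTATCT.
sod-3 upstream: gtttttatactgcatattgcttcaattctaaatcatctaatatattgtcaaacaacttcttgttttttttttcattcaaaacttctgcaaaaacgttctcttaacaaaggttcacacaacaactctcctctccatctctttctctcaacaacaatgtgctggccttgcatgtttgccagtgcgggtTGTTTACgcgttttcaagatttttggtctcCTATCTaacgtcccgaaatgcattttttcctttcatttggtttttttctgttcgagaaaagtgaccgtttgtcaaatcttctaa

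A match to GTAAACA is present in the upstream 300 bp of 5.01% of protein-coding genes, and none of the other 8 listed genes had one there. Such matches describe letters and do not show binding.

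Ordered by the strongest pooled summit, the 9 genes ran from pdk-1 (rank 193) through akt-2 (1454), daf-16 (1654), sgk-1 (1952) and daf-2 (2347) to daf-18 (8400), followed by age-1, akt-1 and sod-3 without one. In the replicates, the ranges of the strongest peak overlapped between the neighbours in this order from akt-2 to daf-18, so their order is not resolved by the replicate spread. Only the range of pdk-1, 130 to 707, lay outside those of the other 8. It joins the intronic site with, in replicate 2, the site 1360 bp upstream. At the intronic site alone replicate 2 ranked 20625, and the pdk-1 range then overlapped those of other listed genes. Among the 1047 strongest peaks of replicates 1, 2, 4 and 5, the windows of 1, 1, 2 and 2 of the 9 genes held a summit (mean 1.50 ± 0.577, SD, n = 4). The share of all protein-coding genes was 7.57%, 7.71%, 7.30% and 7.63%. In at least 1 replicate, 3 of the 9 genes held such a summit, pdk-1, akt-2 and daf-16, against 17.6% of all genes. These shares, too, are not matched for window length.

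Of the 9 genes, 4 lie on the X chromosome, where ELT-3 summits were denser than on autosomes (0.165 against 0.140 pooled summits per kb). On X, 10.5% of protein-coding genes held an optimal summit and 68.9% a pooled one by the same windows. The listed X genes pdk-1, akt-2 and sgk-1 held pooled summits and sod-3 did not.

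Other genes of the pathway and of ageing, 106 in 6 lists by role, are given by count. An optimal summit lay at 12 (11.3%) and a pooled summit at 64 (60.4%), against 7.62% and 62.2% of all protein-coding genes. Among 39 insulin-like ligand genes only ins-39 held an optimal summit (2.56%), 632 bp upstream of its 5′ end, at rank 37 with a signal of 117. It lies on X near pdk-1, with its summit at 1345053. A pooled summit was present at 12 of the 39 ligand genes (30.8%), against 62.2% of all protein-coding genes. The ligand windows were short, with a median of 5.70 kb against 7.03 kb for all protein-coding genes. Of 11 adaptors and kinases around the pathway, 1 held an optimal summit (9.09%), the S6 kinase gene rsks-1. Its summit, at rank 257, lay 4167 bp upstream and was nearest to aakb-2.

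Of 17 regulators and partners of DAF-16, 2 held an optimal summit (11.8%), against 7.62% of all protein-coding genes. The one at ftt-2, which encodes a protein that binds phosphorylated DAF-16 and holds it in the cytoplasm, lay 533 bp upstream at rank 54 with a signal of 102. The one at smk-1, a cofactor of DAF-16, ranked 214 and was nearest to the 5′ end of vps-60. Of 9 other antioxidant enzyme genes, 1 held an optimal summit (11.1%). It lay 1943 bp upstream of sod-4, an extracellular superoxide dismutase gene, at rank 229. The ftt-2 window held one of the 1047 strongest summits in all 4 replicates and the sod-4 and smk-1 windows in 3. Of all protein-coding genes, 1.55% held one in all 4. Optimal peaks were drawn from peaks called on the reads of these replicates, so such agreement is not independent.

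Of 18 other DAF-16 targets, 4 held an optimal summit (22.2%), against 7.62% of all protein-coding genes. The glyoxylate cycle gene icl-1 had 3, at ranks 494, 661 and 998, of which the one at rank 661 was nearest to srh-2. The desiccation protein gene lea-1 had one at rank 73, the small heat shock gene hsp-12.3 one at rank 380 and the glyceraldehyde phosphate dehydrogenase gene gpd-2 one at rank 826 that was nearest to mai-1. Of 12 other ageing genes, the nuclear receptor gene nhr-80 had one at rank 65 that was nearest to H10E21.1 and one at rank 524, the autophagy regulator gene hlh-30 had 2 at ranks 451 and 463, and the hypoxia factor gene hif-1 had one at rank 708. A pooled summit was present at all 12 of these ageing genes and at 16 of the 17 regulators and partners of DAF-16 (94.1%), against 62.2% of all protein-coding genes. The median windows were 9.35 kb for the ageing genes and 7.90 kb for the regulators, against 7.03 kb for all protein-coding genes. The tagged gene elt-3 held 5 optimal summits in the same kind of window, the strongest at rank 151. Signal from the transgene and from the genomic elt-3 gene cannot be told apart.

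**Figure D5:**
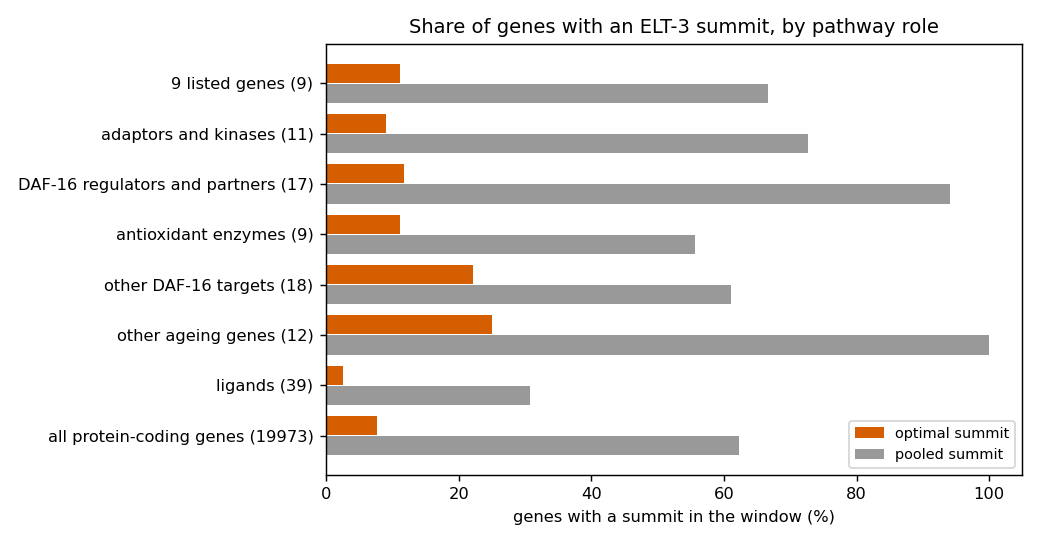
Share of genes with an optimal (orange) or pooled (grey) ELT-3 summit in the window, for the 9 genes, for 6 lists of other pathway and ageing genes and for all 19973 protein-coding genes, with the number of genes in brackets. The 9 genes stand at 11.1% and 66.7%, and all protein-coding genes at 7.62% and 62.2%.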

How the data were processed

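ELT-3 ChIP-seq peak lists were analysed for 4 biological replicates (6 libraries, 1 group). Per the file headers in the deposited listings, the authors called each replicate list, a pooled list and an optimal list that passed the irreproducible discovery rate threshold, against 1 control from another experiment. The deposited signal (column 7) is the peak caller's strength per peak. The deposited −log10 q-value (column 9) was used as an alternative ranking and is quoted for pooled summits of listed genes. The sources used here name no caller, aligner or read depth. The replicate 2 list was assigned from the listings of its 3 libraries. Lists on ce10 were not used.

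Genes came from Ensembl release 115 (WBcel235, the ce11 build), and coordinates count from 1. A summit (column 2 plus column 10) counted for every gene whose window held it, and was matched between lists within 100 bp. Ranks were computed among nuclear peaks. GATA sites on either strand were counted up to 50 bp from a summit. Window counting was tested on simulated summits with Python 3.11.15. By rule, the genes named are the 9 listed, pathway genes with an optimal summit, the gene nearest to each listed gene's optimal or strongest pooled summit, elt-3, and the 3 genes most like the listed gene with the strongest peak. Other neighbours and the genes tied in likeness were named after their values were seen. The listed genes, pathway lists and rules were chosen with earlier results of these data known. Alternatives were other windows, list lengths, matching distances, motifs and rankings, and leaving out each replicate. Nothing in the sources says that the replicates were separate cultures, so their spread may be partly technical.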

Additional observations from a re-analysis of the deposited data

Results flagged for a closer look

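Across the 4 replicates, 18 quantities were compared, the number of summits and the rank of the strongest peak for each of the 9 genes, and 2 had 1 replicate far from the other 3. Chance gives about 1 in 20 for continuous values, and the rate does not hold for small counts. The strongest sgk-1 peak of replicate 2 ranked 17923, where the others ranked 1814 to 2360. The pdk-1 window held 3 summits in replicate 4 and 4 in each other replicate, a gap of a single summit.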

How the results depend on the processing

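Of 53 alternative values, 44 stayed within 1.5 times the count or 1 SD of the value reported and 9 moved. The number of genes with an optimal summit, and of optimal summits in their windows, was 2 with 10000 bp upstream, which added sgk-1 (11.7% of all protein-coding genes), and 0 when only the promoter side was counted, since the pdk-1 summit is intronic. The number of genes was 4 when the 2094 strongest pooled peaks were taken, which added akt-2, sgk-1 and daf-16 (13.9% of all protein-coding genes). The mean number of genes with a top peak per replicate was 0.750 with the 523 strongest peaks of each list and 3.25 with the 2094 strongest, where the mean shares of all protein-coding genes were 4.06% and 14.2%, and ran from 1.33 to 1.67 without each replicate in turn. With mitochondrial peaks counted in the ranks it was 1.25, a setting chosen after seeing the data. With 50 bp matching, 0 genes in place of 1 had an optimal summit matched by one of the 1047 strongest peaks in at least 2 replicates, and leaving out each replicate left 1. In settings chosen after seeing the data, the mean relative density at daf-16 was 2.95 ± 1.83 in the strongest 10% of each list, 1.94 against chromosome I, and 2.00 to 2.18 without each replicate. That of daf-2 was 0.847 to 0.977 without each replicate. Read depth is unknown, so an absent summit does not show absent binding.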
